A study of Danio rerio with 13 samples.

Results

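The genes ckma and ckmb, which encode creatine kinases of the muscle type, and ak1, which encodes adenylate kinase 1, were followed in the tail of zebrafish larvae after knockdown of thyroid hormone deiodinases. They were chosen by name: every probe that stood in a list of called probes with a RefSeq mRNA accession of ckma, ckmb or ak1 was taken. This gave all 3 genes, of 572 named in the lists, through 7 probes, 1 of ckma, 3 of ckmb and 3 of ak1, out of 995 probes in the 3 lists and 19523 probes with fold changes. A probe could only be found in this way if it had been called in at least 1 contrast, so the number of members called is partly set by the choice, and the fold changes below are given for all 7 in every contrast.

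All larvae were wild type fish of the WIK strain, injected into the yolk as embryos and dissected at 72 hours post fertilization (hpf). D1D2MO larvae received a pair of morpholinos against the deiodinases of type 1 and type 2, D3MO larvae a morpholino against the type 3 deiodinase dio3b, and SCMO larvae the standard control morpholino, so that the controls were injected as well. Morpholinos are synthetic antisense oligomers that act for a limited time in the whole embryo, and those used here block translation, so that deiodinase mRNA does not measure the knockdown. The tail was what remained after head and abdomen had been cut away, and the RNA in each channel of an array came from a pool of 20 tails going by the labels. The methods name a larger pool. There were 13 arrays with 2 colours, 5 that paired D1D2MO with SCMO, 4 that paired D3MO with SCMO and 4 that paired both knockdowns. Pools of 4 biological replicates per group were labelled with both dyes and recurred across arrays, so the p-values rest on the spread as it was fitted, part of which may be technical. Only fitted contrasts were used, with no values per array, so each value below is a log2 fold change from the deposited limma fit with its standard error (SE).

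Creatine kinase moves a phosphate group between ATP and creatine. Phosphocreatine is a store from which muscle rebuilds ATP during contraction, with muscle-type enzymes in the cytosol beside the myofibrils and mitochondrial enzymes where ATP is made. Adenylate kinase turns a pair of ADP molecules into ATP and AMP, which recovers energy from ADP and sets the level of AMP, and ak1 encodes the cytosolic form that is abundant in vertebrate skeletal muscle. Deiodinases of type 1 and type 2 produce the active thyroid hormone T3 and the type 3 enzyme inactivates it, and skeletal muscle is a classical target tissue of T3.

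With the activating deiodinases knocked down, all 3 genes were higher than in SCMO by the 7 probes. The ckma probe rose by 1.46 ± 0.08 on the log2 scale, 2.75-fold (95% interval of the log2 value 1.27 to 1.65, adjusted p = 1.16e-05 by limma), and ranked 16 of 19523 probes from the highest. It had the largest rise of the 7 probes in this contrast. The ckmb probes rose by 1.08 ± 0.08, 1.18 ± 0.05 and 1.2 ± 0.06, or 2.11-fold, 2.27-fold and 2.30-fold, with adjusted p-values from 4.29e-06 to 3.25e-05. These estimates lay within 0.13 of one another and their intervals overlapped. The ak1 probes rose by 0.67 ± 0.06, 1.01 ± 0.06 and 1.08 ± 0.05, or 1.59-fold, 2.01-fold and 2.12-fold, with adjusted p-values from 4.90e-06 to 0.000112. The brightest ak1 probe thus gave the lowest value, and its interval, 0.53 to 0.81, did not reach those of the other ak1 probes. All 7 probes passed an adjusted p of 0.05 and a fold of 1.5, where 2.35% of all probes were called higher. Without the fold threshold 14.1% of all probes passed. The median over the 7 probes was 1.08, against 0.000493 over all probes. The 7 came from the called lists, so both gaps are partly set by that choice. Among the 572 named genes, found in the same way, 266 were called higher by their brightest probe, with a median of 0.51. The RNA came from whole tails, so a larger share of muscle cells and more of these mRNAs per muscle cell cannot be told apart, in this contrast or in the others.

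In D3MO ak1 and ckmb were higher than in SCMO, and ckma did not pass both thresholds. ak1 rose most, with 1.01 ± 0.07, 1.23 ± 0.06 and 1.18 ± 0.06 for the probes in the order used above, or 2.01-fold, 2.35-fold and 2.26-fold, and adjusted p-values from 9.02e-06 to 5.31e-05. The highest of these probes ranked 19 of 19523. The ckmb probes rose by 0.84 ± 0.08, 0.79 ± 0.06 and 0.74 ± 0.07, or 1.80-fold, 1.73-fold and 1.67-fold, with adjusted p-values from 7.50e-05 to 0.000312. ckma had the lowest value of the 7 probes here, 0.54 ± 0.09 (interval 0.33 to 0.75). Its adjusted p of 0.00327 by limma passed, while its 1.46-fold difference stayed just under the fold of 1.5, so ckma was not counted as changed in D3MO. With 6 of 7 probes called, the share of all probes called higher was 1.4%. Without the fold threshold 7 of 7 passed, against 15.6% of all probes. The median was 0.84 over the 7 probes and -0.01 over all probes. Of the 572 named genes, likewise from the called lists, 152 were called higher by their brightest probe, with a median of 0.29.

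**Figure D1:**
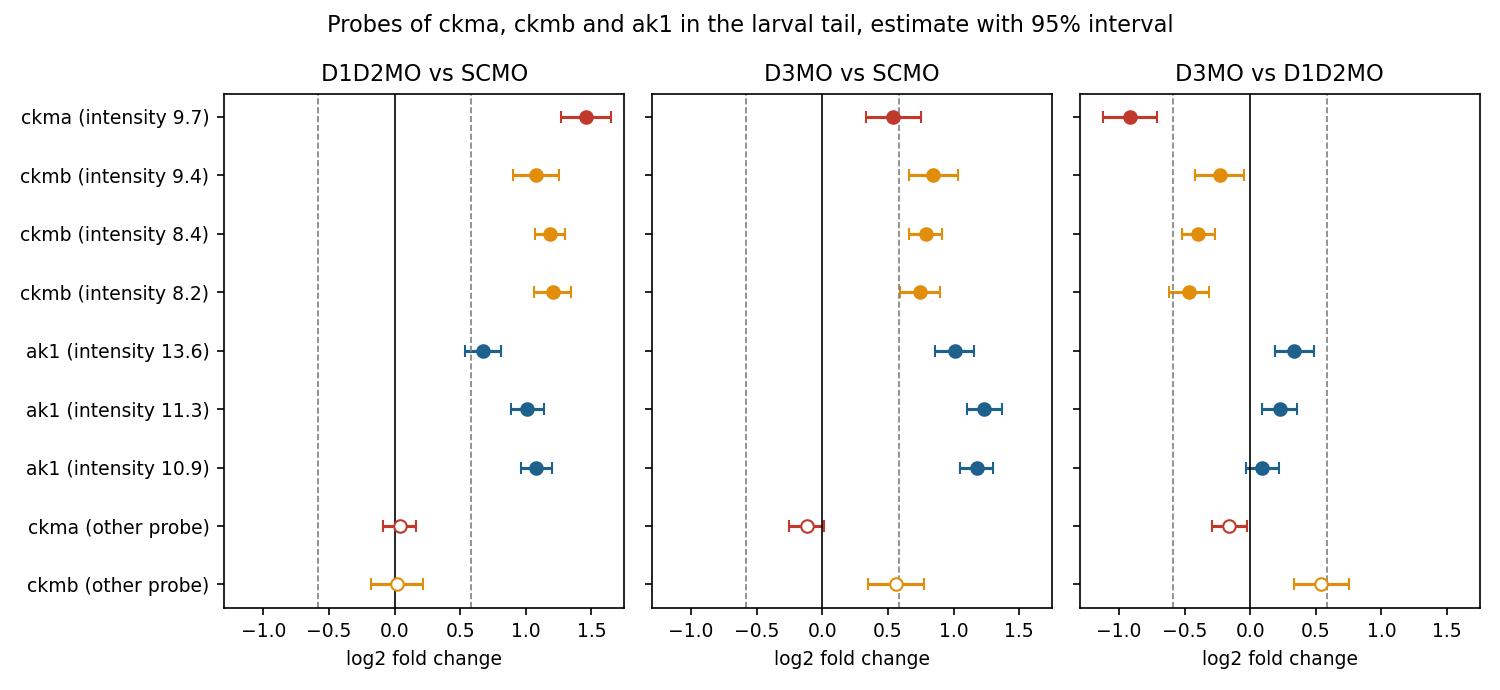
Log2 fold change with its 95% interval for each probe of ckma, ckmb and ak1 in the 3 contrasts, named by gene and by mean log2 intensity, with dashed lines at a fold of 1.5. The filled points lie right of 0 in both contrasts with SCMO and part in D3MO vs D1D2MO, where ckma is at -0.92 and the brightest ak1 probe at 0.34, and open points are a ckma and a ckmb probe from outside the called lists.

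Whether the knockdowns differed was tested in the contrast of D3MO with D1D2MO, which equals the difference between the contrasts with SCMO and therefore shares all of their arrays. ckma was lower in D3MO by 0.92 ± 0.09 on the log2 scale, a 1.89-fold difference (interval of the contrast -1.12 to -0.71, adjusted p = 0.0002 by limma). It was the only probe of the 7 to pass both thresholds, where 2.28% of all probes were called lower and 0.912% higher. The ckmb probes had -0.23 ± 0.08 (adjusted p = 0.0651), -0.40 ± 0.06 (adjusted p = 0.00111) and -0.46 ± 0.07 (adjusted p = 0.00127). The ak1 probes went the other way, with 0.34 ± 0.07 (adjusted p = 0.0054), 0.22 ± 0.06 (adjusted p = 0.021) and 0.09 ± 0.06 (adjusted p = 0.24). For the last of these the interval ran from -0.03 to 0.22, which leaves room for a small difference. Without the fold threshold 3 probes were lower, the ckma probe and a pair of ckmb probes, and 2 were higher, both of ak1, against 17.3% of all probes lower and 12.1% higher. By these 7 probes, the creatine kinase genes had their larger value in D1D2MO and ak1 in D3MO, with the difference largest for ckma, smaller for ckmb and of opposite sign for ak1.

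**Figure D2:**
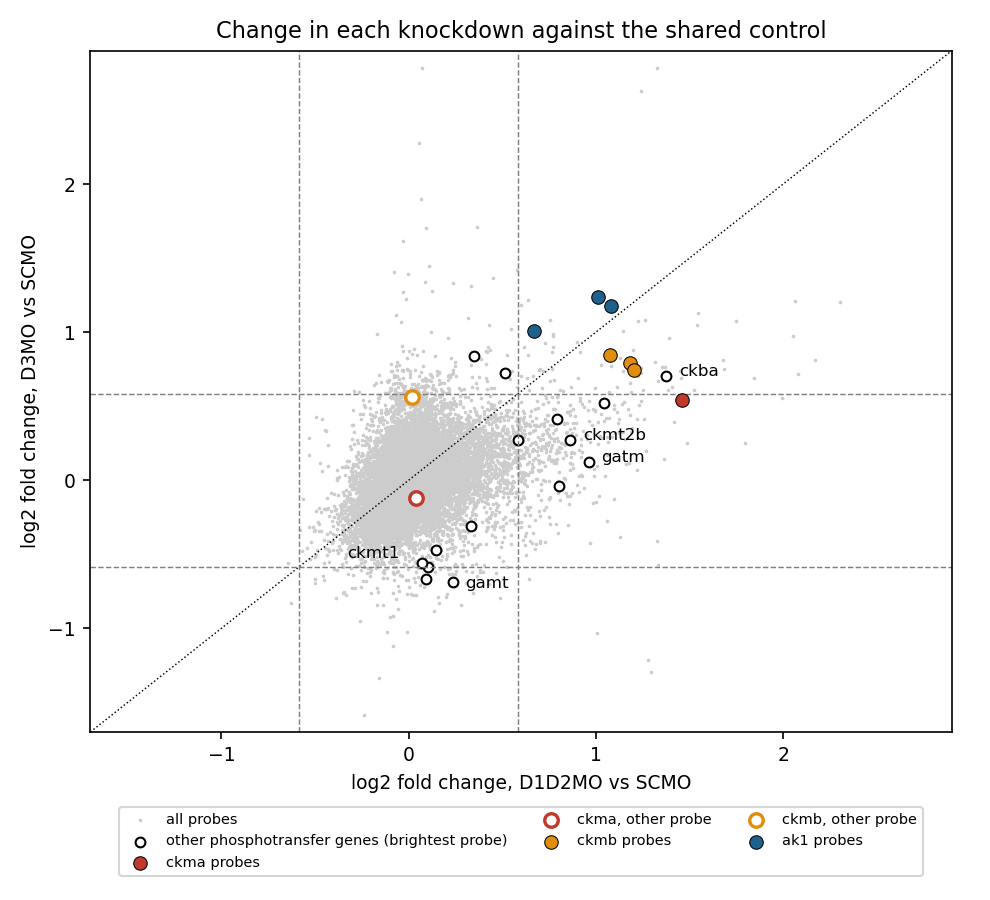
Log2 fold change in D3MO vs SCMO against D1D2MO vs SCMO for all 19523 probes in grey, the 7 probes of ckma, ckmb and ak1, the 2 probes from outside the called lists and the other phosphotransfer genes by their brightest probe, with dashed lines at a fold of 1.5 and a dotted line of equal change. The ak1 probes lie above the line of equal change and the called-list ckma and ckmb probes below it, while the open ckmb probe, at 0.02 and 0.56, lies above it, and the axes share the SCMO samples.

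The study, which also profiled head and abdomen, gives a supplementary list of differentially expressed transcripts. That list pairs 1 further probe with ckma and 1 with ckmb. Neither stood in a called list of the tail, so the rule did not take them. They were looked up after the values of the other probes were known. The further ckma probe differed little from 0 in D1D2MO, with 0.04 ± 0.06 (interval -0.09 to 0.16, adjusted p = 0.671), had -0.12 ± 0.06 in D3MO (adjusted p = 0.16) and differed by -0.16 ± 0.06 between the knockdowns (adjusted p = 0.076). Its interval in D1D2MO lies wholly below that of the called ckma probe. The further ckmb probe had 0.02 ± 0.09 in D1D2MO (interval -0.18 to 0.21, adjusted p = 0.908). In D3MO it had 0.56 ± 0.09 (1.48-fold, adjusted p = 0.00299), and D3MO exceeded D1D2MO by 0.54 ± 0.09 (adjusted p = 0.00296), opposite in sign to the other ckmb probes. Probes of one gene thus disagreed for both creatine kinases. With the further probe in the mean, the D1D2MO value was 0.75 for ckma and 0.87 for ckmb. Probe sequences and the intensities of these 2 probes were not used here, so hybridisation between related creatine kinase mRNAs and weak signal were not tested as sources of the disagreement.

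Brightness was given for the 7 called-list probes. Mean log2 intensity was 9.69 for ckma, 9.42, 8.37 and 8.24 for the ckmb probes and 13.6, 11.3 and 10.9 for the ak1 probes. These numbers rank probes of one gene and do not measure the relative abundance of different mRNAs, since probes differ in how strongly they bind. Within ckmb the spread over probes was 0.13 in D1D2MO and 0.10 in D3MO, and within ak1 it was 0.41 and 0.23. In D1D2MO the brightest probe had the lowest value for both ckmb and ak1, and in D3MO it did so for ak1 and not for ckmb. Averaged over its probes, ak1 was 0.92 higher in D1D2MO and 1.14 higher in D3MO, and ckmb 1.16 and 0.79.

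**Figure D3:**
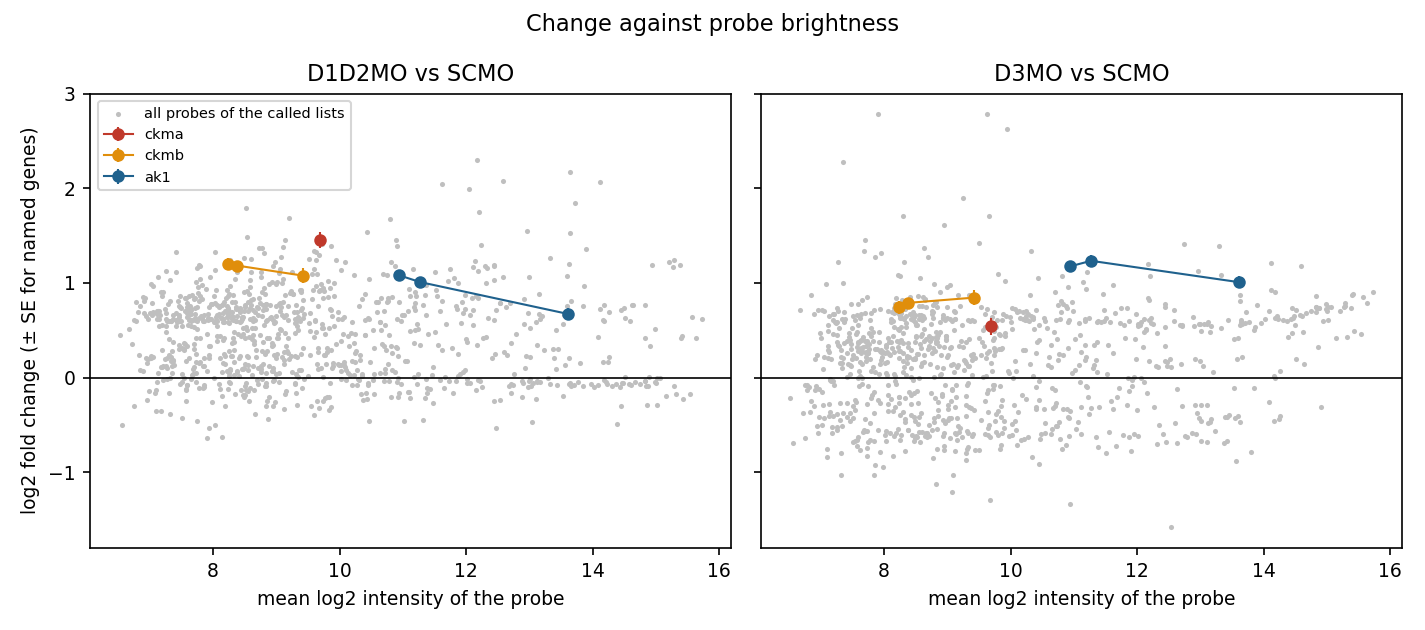
Log2 fold change (with SE for the named genes) against mean log2 intensity for the 995 probes of the called lists, with lines joining probes of one gene. The ak1 probes, at intensities of 10.9 to 13.6, fall from 1.08 to 0.67 in D1D2MO vs SCMO, while the dimmer ckmb probes stay between 1.08 and 1.2.

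Other genes of the creatine system were read from a list, of which 7 of 10 genes, ckma and ckmb included, had a named probe. Only genes called in at least 1 contrast have a name here, so these counts describe the named genes and not the pathway as a whole. In D1D2MO 5 of the 7 rose and 0 fell by limma, beside 266 and 2 of all 572 named genes, and at an unadjusted p of 0.05 the counts were 6 and 0. ckba, a brain-type creatine kinase, rose by 1.38 ± 0.06 (adjusted p = 4.29e-06), close to ckma. ckmt2b, which encodes a mitochondrial creatine kinase of the sarcomeric type, rose by 0.86 ± 0.06, and gatm, the first enzyme of creatine synthesis, by 0.96 ± 0.08. Their dimmer probes had 1.12 for ckmt2b and 0.67 and 0.71 for gatm. The other mitochondrial form, ckmt1, had 0.07 ± 0.05 (adjusted p = 0.394), and gamt, which completes creatine synthesis, had 0.24 ± 0.06 (adjusted p = 0.0175), below the fold threshold.

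In D3MO 2 of these 7 genes were called higher, ckmb and ckba, the latter with 0.71 ± 0.07 (adjusted p = 0.000259), beside 152 of all 572 named genes. gamt fell by 0.69 ± 0.06 (adjusted p = 0.00018), and its 4 probes lay between -0.69 and -0.60. ckmt1 had -0.56 ± 0.06 (adjusted p = 0.000344), just short of the fold threshold, and gatm had 0.12 ± 0.08 (adjusted p = 0.318). Between the knockdowns 6 of the 7 were lower in D3MO, all but ckmb by its brightest probe, and 0 were higher by limma. ckmt1 had a name only through its call here, so its place among the 6 was set by the choice. Of the 3 gatm probes 1, the brightest, was called. Among all 572 named genes 229 were lower and 102 higher. At an unadjusted p of 0.05 all 7, ckmt1 included, were lower and 0 higher, beside 402 and 152 of the 572. The list's medians were 0.96, 0.27 and -0.67 in the 3 contrasts, beside 0.51, 0.29 and -0.48 over all 572 named genes. gamt and ckma had the largest differences between knockdowns in the list, both -0.92, but gamt from a fall in D3MO and ckma from a rise in D1D2MO.

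The AMP and nucleotide side of the pathway had 4 named genes of 24. adsl, an enzyme of purine synthesis and of the purine nucleotide cycle, rose by 1.04 ± 0.05 in D1D2MO and had 0.52 ± 0.06 in D3MO. Its probe, at a mean log2 intensity of 7.79, was dimmer than every called-list probe of ckma, ckmb and ak1. So were the probes of slc25a3b and atp1a2a below, at 8.17 and 8.15. Weak signal was not tested as a source of these values. nme2b.2, a nucleoside diphosphate kinase, rose by 0.79 ± 0.07 in D1D2MO and had 0.41 ± 0.08 in D3MO. ampd1, the muscle AMP deaminase that removes AMP made by adenylate kinase, had 0.09 ± 0.06 in D1D2MO and fell by 0.67 ± 0.06 in D3MO, although a dimmer ampd1 probe had 0.62 and -0.03. adss1, the muscle adenylosuccinate synthase, had 0.10 ± 0.07 and -0.58 ± 0.08, and 1 of its 3 probes was called lower in D3MO. None of the 10 listed subunit genes of AMP-activated protein kinase, the AMP sensor of the cell, had a named probe.

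Genes of mitochondrial carriers for phosphate and for ADP and ATP also parted between the knockdowns. slc25a3b, a mitochondrial phosphate carrier, rose by 0.80 ± 0.08 in D1D2MO and had -0.04 ± 0.08 in D3MO, a difference of -0.84 ± 0.08 (adjusted p = 0.000192). slc25a5, an ADP/ATP carrier measured by 8 probes, had 0.34 ± 0.07 and -0.31 ± 0.08 by the brightest. In D1D2MO 5 of the 8 were called higher, where 2.35% of all probes were. All 8 were called lower in D3MO than in D1D2MO, where 2.28% of all probes were. The brightest and the other probes not called in D1D2MO were called in neither contrast with SCMO. They stood in the lists only through their call between the knockdowns, so for them that call was set by the choice. Of the ATP-using pumps 4 of 15 listed genes had a named probe. Among these, the calcium pump genes of the sarcoplasmic reticulum had their higher value in D3MO. atp2a1 and the brightest atp2a1l probe stood in the lists only through their call in D3MO vs SCMO. Their higher value in D3MO was thus partly set by the choice. atp2a1 had 0.52 ± 0.09 in D1D2MO and rose by 0.72 ± 0.09 in D3MO, a difference of 0.21 ± 0.09 (adjusted p = 0.124). atp2a1l had 0.35 ± 0.05 and rose by 0.84 ± 0.05, a difference of 0.49 ± 0.05 that passed the adjusted p and not the fold threshold. The other atp2a1l probes had -0.16 and 0.21 in D1D2MO, and their differences were 0.72 (adjusted p = 5.77e-05), past both thresholds, and 0.41. The probe with 0.72 stood in the lists only through that call. Both named sodium pump genes had their higher value in D1D2MO. atp1a2a rose by 0.59 ± 0.05 in D1D2MO, just past the threshold, with 0.27 ± 0.06 in D3MO. Its difference between the knockdowns, -0.31 ± 0.06, stayed under the fold threshold. atp1b1a had 0.15 ± 0.07 and -0.47 ± 0.07, a difference of -0.62 ± 0.07 that was called. It had a name only through that call, so its call was set by the choice.

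Over the 18 genes of these lists given here, 10 were called higher and 0 lower in D1D2MO, and the lowest value was 0.07. In D3MO 5 were called higher and 2 lower. Between the knockdowns 11 were lower and 0 higher in D3MO by limma with the fold threshold. Without it 14 were lower and 2 higher, ak1 and atp2a1l, and at an unadjusted p of 0.05 the counts were 15 and 2. Leaving out ckma, ckmb and ak1, 7 of 15 were higher in D1D2MO, 3 higher and 2 lower in D3MO, and 10 lower in D3MO than in D1D2MO. Some of these genes were listed, by the probe used, only through the contrast counted. They were adsl, nme2b.2 and atp1a2a for D1D2MO, and atp2a1 and atp2a1l for D3MO. Between the knockdowns they were ckmt1, atp1b1a, adss1 and slc25a5. For these the call was set by the choice. Among all 572 named genes the counts were 266 higher and 2 lower in D1D2MO, 152 and 57 in D3MO, and 102 higher and 229 lower between the knockdowns, so calls in these directions were common among named genes in general.

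**Figure D4:**
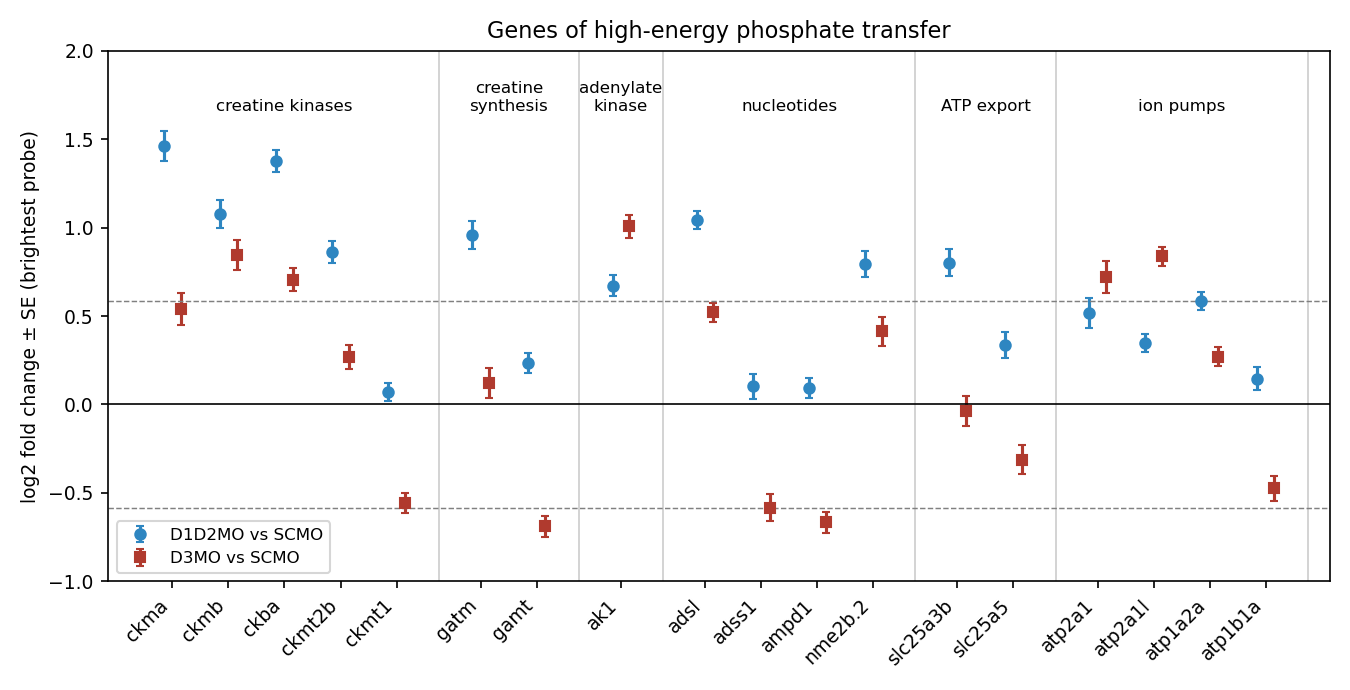
Log2 fold change ± SE of the brightest probe of the phosphotransfer genes given in the text, in D1D2MO vs SCMO (circles) and D3MO vs SCMO (squares), with dashed lines at a fold of 1.5. ak1, atp2a1 and atp2a1l have their higher value in D3MO, and the other genes have theirs in D1D2MO.

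For each gene the 3 named genes nearest to it were found, by the distance between the log2 fold changes of both contrasts with SCMO, over 571 other genes and on 2 coordinates that share the SCMO samples. Nearest to ckma was mylpfb, a fast-muscle myosin light chain, at a distance of 0.0943 with values of 1.53 in D1D2MO and 0.61 in D3MO. aldoab, an aldolase, followed at 0.154 with 1.41 and 0.39, and then ckba at 0.184. Nearest to ckmb were atp5f1c and atp5f1b, which encode the gamma and beta subunits of ATP synthase, at 0.0745 with 1.08 and 0.77 and at 0.0868 with 1.03 and 0.77. acta1b, a skeletal muscle actin, came next at 0.157 with 1.19 and 0.73. Nearest to ak1 was the uncharacterised gene si:ch211-251f6.7 at 0.0984, with 0.77 in D1D2MO and 0.99 in D3MO. zgc:173443 followed at 0.125 with 0.55 and 1.02, and myhz1.1, a fast myosin heavy chain, at 0.163 with 0.64 and 0.85. The differences between neighbours in these orders were of the same order as the SEs of the values, 0.05 to 0.09. Each gene was placed by its brightest probe. For ak1 that probe had 0.67 and 1.01, while the mean over its probes was 0.92 and 1.14. That mean lies further from the brightest ak1 probe than any of the 3 neighbours. With the further probe in its mean ckma had 0.75 and 0.21. The neighbours named thus hold for the brightest probes only.

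Markers of muscle were read beside the 3 genes. As named genes were all called in some contrast, the counts stand beside those over all 572, of which 266 rose in D1D2MO with a median of 0.51 and 152 in D3MO with a median of 0.29. Of 24 named fast-muscle genes, out of 43 listed, 20 rose in D1D2MO and 12 rose and 1 fell in D3MO, with medians of 0.83 and 0.58. actc1b, an alpha actin, had the largest rise in D1D2MO, 2.17 ± 0.10, and 0.81 ± 0.10 in D3MO. tnni2a.4, a fast troponin I, rose by 1.55 ± 0.06 and 1.13 ± 0.07, and mylpfa, a myosin light chain, by 1.08 in D3MO. The 4 named slow-muscle genes all rose in D1D2MO, with casq2, a calsequestrin of the calcium store, at 1.18 and a median of 1.06, and 0 of 4 were called in D3MO, where their median was 0.44 and all 4 were higher at an adjusted p below 0.05, short of the fold threshold. The fast-muscle list shared ampd1, atp2a1 and atp2a1l with the phosphotransfer lists, and ampd1 was the 1 gene that fell in D3MO. By the probe used, some markers were listed only through the contrast counted. They were casq1b, ldb3b, pvalb3, pvalb4, tnnt3a, tnnt3b and the slow-muscle smyhc3 for D1D2MO, and atp2a1 and atp2a1l for D3MO. The fast-muscle genes ranged from -0.07 to 2.17 in D1D2MO and from -0.67, for ampd1, to 1.13 in D3MO. Inside both ranges lay ckma, at 1.46 and 0.54, ckmb, at 1.08 and 0.84, and ak1, at 0.67 and 1.01. All 572 named genes ranged from -0.64 to 2.17 in D1D2MO, so lying inside so wide a range does not set the 3 genes apart. None of the 10 heart markers was among the named genes.

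Among markers of other cell types, several lists held called genes too. In D1D2MO 8 of 10 named epidermal genes rose, with a median of 0.62 and krt4, a keratin, at 1.06. Of these, anxa1b, cyt1, krt18a.1, krt5 and krt92 were listed only through that rise, so their calls were set by the choice. Of the named genes of liver, yolk and gut 7 of 8 rose, with apoa1a, an apolipoprotein, at 1.33. Here apoeb and cpn1 were likewise listed only through their rise in D1D2MO. Of all 572 named genes 266 rose, with a median of 0.51. The liver, yolk and gut probes had mean log2 intensities from 6.52 to 11.9, and apoa1a had 7.41. Most were dimmer than every called-list probe of ckma, ckmb and ak1, and weak signal was not tested as a source of their values. In D3MO 1 of the 10 epidermal genes and 0 of the 8 liver, yolk and gut genes were called higher, and 0 of either list lower. Over all 572 named genes 152 were called higher and 57 lower there. At limma's adjusted p alone 3 of the epidermal and 2 of the liver, yolk and gut genes were higher, and 1 and 1 lower. At an unadjusted p of 0.05, 4 and 2 were higher and 1 and 3 lower, with medians of 0.15 and -0.11. Erythrocyte genes rose in 2 of 4 cases in D1D2MO and 4 of 4 in D3MO, where hbbe3, an embryonic beta globin, had 2.63. hbaa2 and hbae3, like the epidermal krt1-19e by its brightest probe, were listed only through their rise in D3MO. Of 8 named neuronal genes 0 were called in D1D2MO, where the median was -0.12. At limma's adjusted p alone 2 were higher and 4 lower there, and at an unadjusted p of 0.05 the counts were 3 and 4. In D3MO 5 of the 8 fell (median -0.62), beside 57 of all 572 named genes. Among the 5, cplx2b, neurod6b, tagln3b and the brightest elavl4 probe were listed only through that fall. The count was thus largely set by the choice. Tail composition was not measured, and the part of these shifts in the values of ckma, ckmb and ak1 was not tested.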

How the data were processed

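The authors scanned the arrays with GenePix, left out spots that never rose clearly above local background, applied a normal-exponential background correction and loess within arrays, and fitted linear models with limma (version not given in the sources used here). Deposited by the authors, log2 fold changes and log2 intensities were taken without change, with the first named group as numerator. P-values had been deposited unadjusted for all probes and adjusted for called probes. The score used is the moderated t, which the authors deposited for called probes. The files hold contrasts of this fit, and its terms and arrays are not stated. The numbers of arrays and pools limit the precision.

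SEs were computed as log2 fold change divided by t. For other probes t was recovered from p with the 8.72 total degrees of freedom implied by the called probes. Adjusted p-values were recomputed over 19523 probes (Benjamini-Hochberg) and came within 0.436% of those deposited. Calls required an adjusted p under 0.05 with a fold over 1.5. The computation was tested on simulated data, with Python 3.11.15, pandas 2.3.3 and SciPy 1.17.1.

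Of the 995 called-list probes, 786 matched 1 of 572 genes in a RefSeq gene table (assembly GRCz12tu, names only) and 209 have no name here. The brightest probe represented a gene. Reported by name were the 7 called-list probes of the 3 genes and the 2 from the supplementary list. Probes outside these sources had no name here, so further probes of the 3 genes could not be seen. Also reported were the named genes of the phosphotransfer lists (not every listed gene is reported here). The 3 genes nearest to each member were named too, with up to 2 called markers per list and contrast. The members and lists were chosen with earlier results of these data known. Other thresholds, another adjustment, centring on the median and the mean over probes were tried as alternatives.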

Additional observations from a re-analysis of the deposited data

Results flagged for a closer look

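Each result here is one whose effect differed between the knockdowns, tested by limma in the contrast D3MO vs D1D2MO over all probes. ckma differed by -0.92 ± 0.09 (adjusted p = 0.0002), from 1.46 in D1D2MO to 0.54 in D3MO. The ckma probe from outside the called lists had -0.16 ± 0.06 (adjusted p = 0.076), and the mean of both ckma probes was -0.54. A pair of ckmb probes differed by -0.40 ± 0.06 (adjusted p = 0.00111) and -0.46 ± 0.07 (adjusted p = 0.00127), and the ckmb probe from outside the called lists by 0.54 ± 0.09 (adjusted p = 0.00296). For ak1 the brightest probe differed by 0.34 ± 0.07 (adjusted p = 0.0054) and the next by 0.22 ± 0.06 (adjusted p = 0.021). Of the other phosphotransfer genes reported here, those that passed the adjusted p in both contrasts with SCMO with opposite signs were gamt, with a difference of -0.92 ± 0.06 (adjusted p = 2.79e-05), and slc25a5, with -0.65 ± 0.08 (adjusted p = 0.000593). The slc25a5 probe used, its brightest, stood in the called lists only through its call between the knockdowns.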

How the results depend on the processing

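Of the 45 values recomputed under an alternative, 28 stayed on their side of the threshold or near their value. Of the others, 11 moved by an SE or more, 4 were stronger and 2 weaker, and none changed sign. The 28 include values centred on the median of all probes, which could change little. Those medians were 0.000493, -0.00532 and -0.016 in the 3 contrasts. With the mean over the called-list probes in place of the brightest, ckmb was 1.16 in D1D2MO and -0.36 in D3MO vs D1D2MO, and ak1 was 0.92, 1.14 and 0.22 in the 3 contrasts. With the further probe in the mean, chosen after seeing the data, ckma was 0.75, 0.21 and -0.54 and ckmb 0.87, 0.73 and -0.14. At a fold of 2, 3 of the 7 probes were called in D3MO, and 0 in D3MO vs D1D2MO, where 5 passed limma's adjusted p alone. Without the fold threshold 10 phosphotransfer genes were higher and 6 lower in D3MO, and 2 were higher in D3MO than in D1D2MO. Leaving out the dimmest probes was not run, since intensity was used for the called probes alone. No paired analysis was possible because only contrasts of the fit were used, and for that reason no array was left out in turn.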
